A study of Homo sapiens with 6 samples.

Results

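The genes described here are the numbered intergenic noncoding RNAs of the human gene nomenclature, those whose symbol begins with LINC and a digit and carries no antisense suffix. The gene LINC00657 was left out of the set. The rule used symbols alone and no measured value, and it found 162 of the 23013 genes with values. Counts came from native RNA immunoprecipitation sequencing of nuclei from untreated HCT116, an established human colorectal cancer cell line. An antibody against ORC1, the largest subunit of the origin recognition complex, pulled down the protein with its RNA in 3 libraries (ORC1 IP), and 3 libraries of nuclear RNA that saw no antibody served as input. The question was which RNAs come down with ORC1. No library from a control antibody was analysed here, so RNA that sticks to beads or antibody was not measured gene by gene. The study reports no detectable RNA from its control IgG. All libraries came from the same line, and a count from bulk nuclei cannot tell fewer cells with an RNA from less of it per cell.

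Long intergenic noncoding RNAs are transcribed by RNA polymerase II and are mostly capped, spliced and polyadenylated like mRNAs, but they hold no long open reading frame. They are usually present at far lower levels than mRNAs and are often more nuclear. The LINC numbers were given to such transcripts before a function was known, and some were later found to encode small proteins, to host small nucleolar RNAs or to act on chromatin or in the cytoplasm. ORC1 belongs to the complex that binds chromatin at replication origins and loads the replicative helicase. The native immunoprecipitation samples RNA that comes down with ORC1, whether bound to it directly or not.

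Values are normalised counts, that is, reads per gene divided by a size factor for each library. Recovered reads on genes numbered between 13703033 and 17248924 in the inputs and between 25134156 and 36008733 in the ORC1 IPs, of which the LINC genes held only 4622 to 21147 reads per library. A mean of at least 10 normalised counts over the 6 libraries was required for testing, and 89 of the 162 LINC genes (54.9%) reached it, against 71.8% of all genes. Their levels were low. Among the tested LINC genes the median of the mean level was 36.7 normalised counts, with a range of 10.4 to 488.6, whereas the median over all 16513 tested genes was 357.

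The LINC genes together did not differ between ORC1 IP and input beyond the spread of the libraries. They took 0.0416%, 0.0337% and 0.0416% of the gene reads in inputs 1, 2 and 3. In ORC1 IPs 1, 2 and 3 they took 0.0217%, 0.0841% and 0.0261%. The Wilson 95% interval of each share, which covers counting error only, was narrow, from 0.0406% to 0.0425% in input 1 and from 0.0830% to 0.0853% in ORC1 IP 2. ORC1 IP 2 therefore lay above every input and ORC1 IPs 1 and 3 lay below every input. The mean was 0.0389% ± 0.00452 (SD, n = 3) in input and 0.0440% ± 0.0349 (SD, n = 3) in ORC1 IP, a difference of 0.00503 percentage points (two-sided exact permutation test, p = 1, n = 3, smallest possible p 0.1). Without ORC1 IP 2 the difference was -0.0151 percentage points (exact permutation p = 0.1, the smallest that this design allows). The order was not particular to LINC genes. The size factor, a median over genes of any kind, was 1.72 for the 25134156 reads of ORC1 IP 2. It was 0.869 for 26213138 reads of ORC1 IP 1 and 1.34 for 36008733 of ORC1 IP 3. Inputs had factors of 0.635 to 0.948. Relative to reads, the factor was thus largest in ORC1 IP 2 and smallest in the other IPs. Its part in the LINC shares was not tested. ORC1 IP 2 was also the library in which the 100 most abundant genes took the smallest share of reads, 13.9%. They took 19.1% to 22.9% in the inputs and 23.1% to 26.0% in the other IPs. With those 100 genes taken out of the totals, the LINC share was 0.0977% in ORC1 IP 2 and 0.0437% to 0.0516% in the inputs. It was 0.0293% and 0.0340% in ORC1 IPs 1 and 3, so ORC1 IP 2 still stood above the other libraries. The difference between the groups was then 0.00473 percentage points (exact permutation p = 1).

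**Figure D1:**
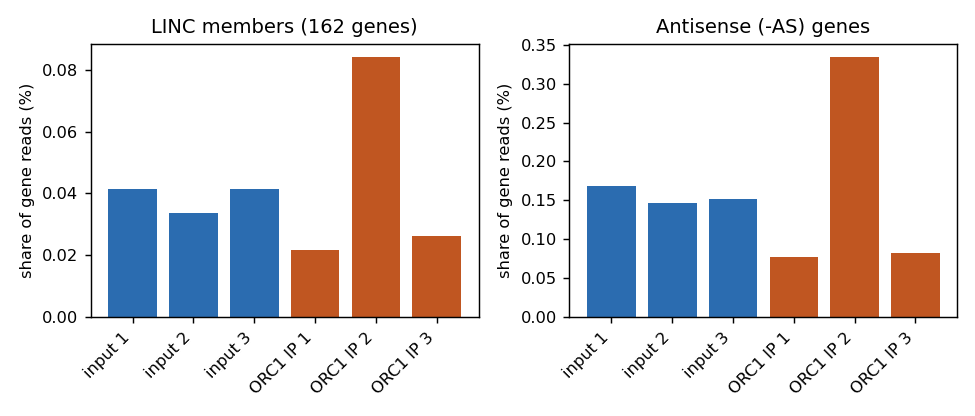
Share of all gene reads (percent, vertical axis from 0) taken by the 162 LINC genes, left, and by the antisense genes (symbols ending in -AS and a digit), right, in each of the 6 libraries; each bar is a single library, inputs in blue and ORC1 IPs in orange. In both panels ORC1 IP 2 is the highest bar and ORC1 IPs 1 and 3 are the lowest, for the LINC genes at 0.0841%, 0.0217% and 0.0261%.

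The same split ran through single genes. Relative to the mean log2 input value of each gene, the median tested LINC gene stood at -0.39 in ORC1 IP 1, at 0.64 in ORC1 IP 2 and at -0.14 in ORC1 IP 3, where the medians over all tested genes were -0.01, -0.02 and 0.07. ORC1 IP 2 held the highest of the 3 IP values for 64 of 89 LINC genes (71.9%), against 38.8% of all tested genes. It exceeded every input for 50 LINC genes (56.2%, against 34.0% of all tested genes), whereas ORC1 IPs 1 and 3 did so for 18 each (20.2%, against 35.6% and 37.0%). Conversely, ORC1 IPs 1 and 3 both lay below every input for 24 LINC genes (27.0%, against 22.5%), and ORC1 IP 2 did not for 22 of these (24.7% of LINC genes, against 8.93% of all tested genes). Antisense genes, and low genes of any kind, also stood higher in this library. The 230 tested antisense genes gave medians of -0.33, 0.66 and -0.36, and the 5107 tested genes of any kind with a mean under 100 normalised counts gave -0.07, 0.33 and -0.10. The 6814 tested genes with a mean of 100 to 1000 gave -0.15, 0.03 and 0.03. Among LINC genes the 66 with a mean under 100 gave -0.39, 0.66 and -0.14, and the 23 with a higher mean gave -0.56, 0.49 and -0.25, so the split was present at both levels. ORC1 IP 2 was the highest IP for 69.7% of the former and 78.3% of the latter. What sets ORC1 IP 2 apart was not tested, and the calls below are given with and without it where it changes them.

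LINC00243, which showed the largest excess of ORC1 IP 2 over the next library and was chosen after its values were seen, gives the pattern in a single gene. Its normalised counts were 49.6, 41.0 and 51.5 in the inputs and 35.7, 193.9 and 20.9 in the ORC1 IPs. The library that was high was ORC1 IP 2, and the remaining IPs lay below every input. The log2 fold change over 3 libraries per group was 0.16. LINC00173, also chosen after its values were seen, had 144.6, 96.1 and 112 normalised counts in the inputs and 107, 431 and 82.7 in the ORC1 IPs, where again only ORC1 IP 2 was high.

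**Figure D2:**
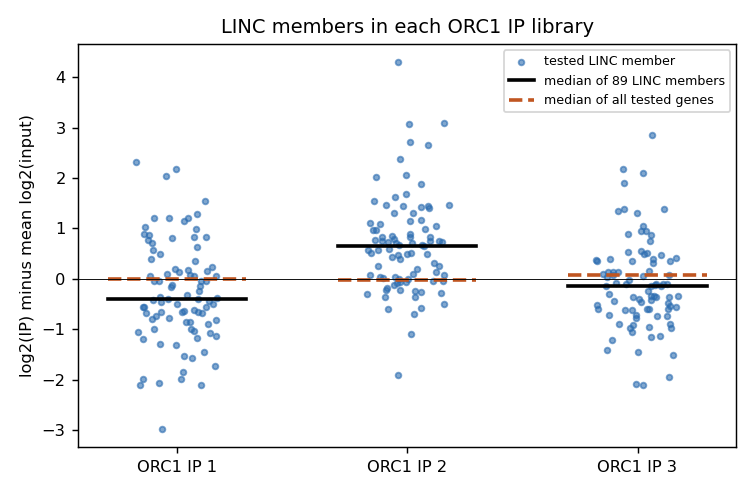
Log2(normalised count + 1) in each ORC1 IP minus the mean over the 3 inputs. Points are the tested LINC genes, the black line is their median, and the dashed line is the median of all tested genes. The LINC medians are -0.39, 0.64 and -0.14 in ORC1 IPs 1, 2 and 3, against -0.01, -0.02 and 0.07 over all tested genes.

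Of the 89 LINC genes tested, 2 were higher in ORC1 IP, LINC00174 and LINC00342, and 0 were lower (limma on log2(normalised count + 1), Benjamini-Hochberg adjusted p under 0.05). Over all tested genes 376 were higher (2.28%) and 234 lower (1.42%), so the LINC share of 2.25% higher stood near the background. At an unadjusted p under 0.05, 9 LINC genes were higher (10.1%, background 12.2%) and 1 was lower (1.12%, background 9.45%). At the adjusted threshold neither edgeR nor DESeq2 called a lower LINC gene, against 1.31% and 4.35% of all tested genes. The study called an RNA enriched when it was more than 1 log2 unit higher at an unadjusted p below 0.05. Applied to this fit in both directions, that cutoff was passed by 7 LINC genes upward (7.87%, background 10.9%) and by 1 downward (1.12%, background 7.25%). With a replicate block, the paired fit, 5 passed upward and 0 downward, against 10.7% and 6.78% of all tested genes in limma. Without ORC1 IP 2, 7 LINC genes passed upward and 7 downward, against 15.7% and 9.86% of all tested genes, so the low downward count rested on that library. All 3 ORC1 IP values lay above all 3 inputs for 10 LINC genes (11.2%, background 12.7%) and below them for 2 (2.25%, background 13.5%). The log2 fold changes had a median of -0.02, with quartiles at -0.36 and 0.43, and 43 of 89 (48.3%) were positive, against a median of 0.01 and 50.7% over all tested genes. Without ORC1 IP 2 the median was -0.32 for the LINC genes and 0.02 over all tested genes. With each library left out in turn, the LINC median ranged from -0.32 to 0.21. The spread between libraries was wide for genes this low: the median standard error was 0.56, and 62 of 89 exceeded 0.5.

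**Figure D3:**
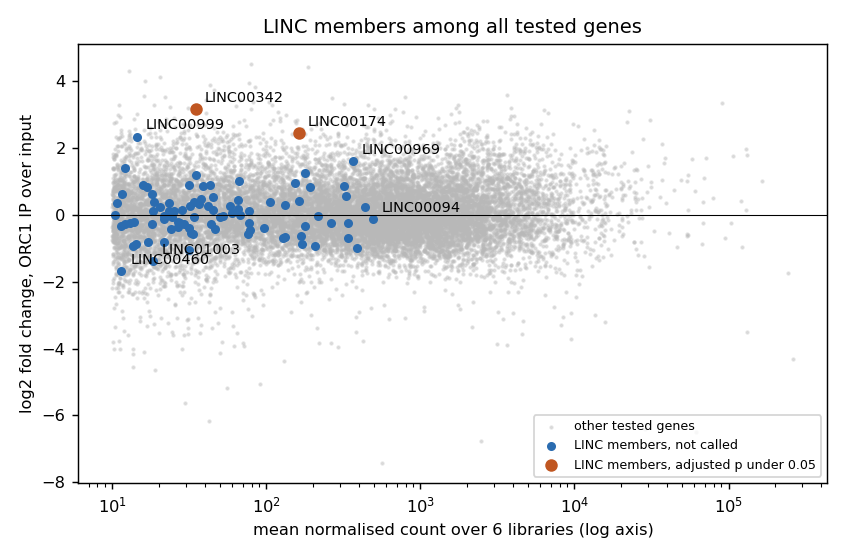
Log2 fold change of ORC1 IP over input (vertical axis) against the mean normalised count over the 6 libraries (horizontal log axis) for the tested LINC genes, in colour, over the other tested genes, in gray. LINC00174 and LINC00342 are the called LINC genes, at 2.45 and 3.15, and most LINC genes lie left of the bulk of the genes and on both sides of 0.

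LINC00174 (ENSG00000179406) was the LINC gene with the smallest p. It had 61.2, 59.9 and 28.1 normalised counts in the inputs and 216, 403 and 203 in the ORC1 IPs. Every IP exceeded the highest input by more than the inputs differed among themselves. The means were 49.7 ± 18.8 (SD, n = 3) and 274 ± 112 (SD, n = 3). On the log2 scale ORC1 IP was higher by 2.45 ± 0.46 (SE; 95% interval 1.44 to 3.45; limma adjusted p = 0.0183). The reads behind these values were 58, 38 and 24 in the inputs and 188, 694 and 273 in the ORC1 IPs. Without ORC1 IP 2 the log2 fold change was 2.14 (limma adjusted p = 0.0062). The call was lost when counts were scaled by their total (limma adjusted p = 0.103), without input 3 (limma adjusted p = 0.156) and without ORC1 IP 3 (limma adjusted p = 0.0598).

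LINC00342 (ENSG00000232931) showed the largest fold change of the tested LINC genes, at low counts. It had 6.33, 12.6 and 1.17 normalised counts in the inputs, from 6, 8 and 1 reads, and 28.8, 117 and 42.5 in the ORC1 IPs, from 25, 201 and 57 reads. The groups did not overlap, although ORC1 IP 2 was far above the other IPs. The means were 6.70 ± 5.73 (SD, n = 3) and 62.7 ± 47.3 (SD, n = 3), and the log2 difference was 3.15 ± 0.76 (SE; 95% interval 1.51 to 4.80; limma adjusted p = 0.0434). Without ORC1 IP 2 it was 2.58 (limma adjusted p = 0.0335). The call was lost under scaling by total count (limma adjusted p = 0.114), and without input 1 (0.0735), input 3 (0.261) or ORC1 IP 3 (0.105), all limma adjusted p.

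Where these transcripts lie bears on how their reads can be told from those of other genes, because the sources used here do not say how strand and reads that match several genes were handled. Coordinates and sequences are those of GENCODE v44 on GRCh38, matched by gene identifier, while the counts were made on hg19. LINC00174 spans chr7:66376044-66493566 on the minus strand, has a longest transcript of 4702 nt in 7 exons, and overlaps 6 annotated genes on its own strand and 2 on the opposite strand. The protein-coding gene among them is TPST1, a tyrosylprotein sulfotransferase gene on the opposite strand. TPST1 itself had a log2 fold change of -0.61, opposite in sign to that of LINC00174. Of the 50-base stretches of the LINC00174 transcript only 0.215% occurred in transcripts of another gene. LINC00342 spans chr2:95807052-95835003 on the minus strand with 2 exons and a transcript of 4643 nt. It lies 1916 bp from ANKRD36C, an ankyrin repeat gene on the same strand. The mean of ANKRD36C was 96.1 normalised counts in input and 490 in ORC1 IP, at a log2 fold change of 2.44. The next shares are those of LINC00342. Of the 50-base stretches of LINC00342, 27.8% were shared with other genes, APPAT first among them. The longest such stretch of LINC00342 runs 197 bases. Its first 150 bases are printed here in capitals after the bases that precede them. Every run of 50 bases within the capitals also occurs, on either strand, in a transcript of another gene. Whether longer reads could be assigned to 1 gene was not tested.
LINC00342, transcript bases 1100 to 1269: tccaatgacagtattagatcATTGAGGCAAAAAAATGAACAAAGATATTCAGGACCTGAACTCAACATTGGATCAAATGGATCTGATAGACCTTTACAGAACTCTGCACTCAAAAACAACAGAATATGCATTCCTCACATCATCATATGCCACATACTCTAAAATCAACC

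LINC00969 (ENSG00000242086) had the smallest adjusted p among the LINC genes that were not called. The annotation now names it MUC20-OT1, a transcript that overlaps the mucin gene MUC20 on the same strand at chr3:195658062-195739964. It had 181, 195 and 111 normalised counts in the inputs and 365, 1046 and 291 in the ORC1 IPs. ORC1 IP 2 was again the highest, but the lowest IP still exceeded the highest input. The log2 fold change was 1.60 ± 0.48 (SE, limma adjusted p = 0.0821), which missed the threshold, and DESeq2 on recovered reads called it (adjusted p = 0.0132). Nearly as much of its transcript was shared with other genes as was not: 49.4% of its 50-base stretches occurred elsewhere, mainly in SDHAP2, a pseudogene of a succinate dehydrogenase subunit.

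The remaining genes whose IP values all exceeded their inputs did not pass the test. LINC00999 (ENSG00000225119) had 7.39, 9.46 and 0 normalised counts in the inputs and 17.3, 36.6 and 15.7 in the ORC1 IPs, and its log2 difference was 2.34 ± 0.87 (SE, limma adjusted p = 0.140). No read of it was found in input 3. LINC00467 (ENSG00000153363), which has been reported to encode a mitochondrial micropeptide, had 178, 59.9 and 92.4 normalised counts in the inputs and 222, 322 and 193 in the ORC1 IPs. Its inputs differed among themselves more than input 1 did from ORC1 IP 3, and its log2 fold change was 1.26 ± 0.46 (SE, limma adjusted p = 0.133).

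LINC00265 (ENSG00000188185), studied as a cancer-associated RNA, had the tightest groups of these. It had 39.0, 47.3 and 44.5 normalised counts in the inputs and 77.1, 97.5 and 90.9 in the ORC1 IPs. ORC1 IP 2 was not set apart here. The means were 43.6 ± 4.19 (SD, n = 3) and 88.5 ± 10.4 (SD, n = 3), and the log2 fold change was 1.00 ± 0.42 (SE, limma adjusted p = 0.187), where limma moderates the SE toward that of other genes at this level. LINC01128 (ENSG00000228794) had 245, 222 and 204 normalised counts in the inputs and 514, 302 and 433 in the ORC1 IPs, with its lowest IP value in ORC1 IP 2. Its log2 fold change was 0.86 ± 0.36 (SE, limma adjusted p = 0.179), and without ORC1 IP 2 it was 1.08 (limma adjusted p = 0.0417). LINC00205, LINC00640 and LINC01155 complete the 10 and are named to complete the count, after their values were seen; their log2 fold changes were 0.96, 0.88 and 1.20.

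The LINC genes below every input in all 3 ORC1 IPs were LINC01003 and LINC00152. LINC01003 (ENSG00000261455) is a single-exon RNA at chr7:152463786-152465549 on the plus strand. It had 16.9, 29.9 and 33.9 normalised counts in the inputs and 5.76, 11.6 and 11.9 in the ORC1 IPs, and its log2 difference was -1.38 ± 0.58 (SE, limma adjusted p = 0.190). Its nearest coding gene, KMT2C, a histone methyltransferase gene 27142 bp away on the opposite strand, had means of 861 normalised counts in input and 6907 in ORC1 IP and a log2 fold change of 2.95.

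LINC00152 (ENSG00000222041), now named CYTOR and known as a largely cytoplasmic RNA of proliferating cells, had 133, 172 and 167 normalised counts in the inputs and 106, 105 and 82.7 in the ORC1 IPs. Its means were 157 ± 21.3 (SD, n = 3) and 97.9 ± 13.2 (SD, n = 3), and its log2 difference was -0.68 ± 0.38 (SE, limma adjusted p = 0.329). Of its 50-base stretches 62.9% occurred in other genes, MIR4435-2HG first, so its counts are uncertain.

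Leaving out ORC1 IP 2 brought further LINC genes past the threshold in the downward direction. LINC00998, now SMIM30, had 384, 126 and 226 normalised counts in the inputs and 50.7, 372 and 80.5 in the ORC1 IPs. Its log2 fold change went from -0.94 to -1.78 without that library (limma adjusted p = 0.0195). LINC00338, now SNHG20, a host of small nucleolar RNA, had 325, 588 and 566 against 261, 479 and 110, and went from -0.99 to -1.48 (limma adjusted p = 0.0278). LINC00460, studied in colorectal and other cancers, had 17.9, 12.6 and 17.6 against 1.15, 16.3 and 2.98, and went from -1.67 to -2.53 (limma adjusted p = 0.0242). In each of these, ORC1 IP 2 lay within the range of the inputs while ORC1 IPs 1 and 3 lay below it. Over all tested genes the same omission raised the share called higher to 11.9% and lower to 6.38%, beside 3 of 89 LINC genes in each direction.

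The 10 LINC genes of highest mean level did not pass the test in either direction, where 2.28% of all tested genes were higher and 1.42% lower. The most abundant, LINC00094 (now BRD3OS), had 519, 369 and 587 normalised counts in the inputs and 302, 788 and 366 in the ORC1 IPs, at a log2 fold change of -0.12. It overlaps BRD3, a bromodomain gene with a log2 fold change of 1.67, on the opposite strand. Of the 50-base stretches of LINC00094, 21.9% occurred in BRD3 transcripts on either strand. Without knowledge of strand, reads from those stretches cannot be told from reads of BRD3. LINC00641 had 346, 610 and 274 normalised counts in the inputs and 374, 640 and 382 in the ORC1 IPs, nearly the same set of values. LINC00839 had 212, 290 and 273 in the inputs and 454, 502 and 238 in the ORC1 IPs, where ORC1 IP 3 was the exception to higher values (log2 fold change 0.56, limma adjusted p = 0.430). LINC00963, LINC00511 and LINC00909 overlapped between the groups, with log2 fold changes of -0.24, -0.25 and -0.03. Per kilobase of longest transcript, the highest input level of a tested LINC gene was that of LINC00493, at 627 normalised counts per kb, and LINC00174 and LINC00342 stood at 10.6 and 1.44 per kb in input and at 58.3 and 13.5 per kb in ORC1 IP.

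**Figure D4:**
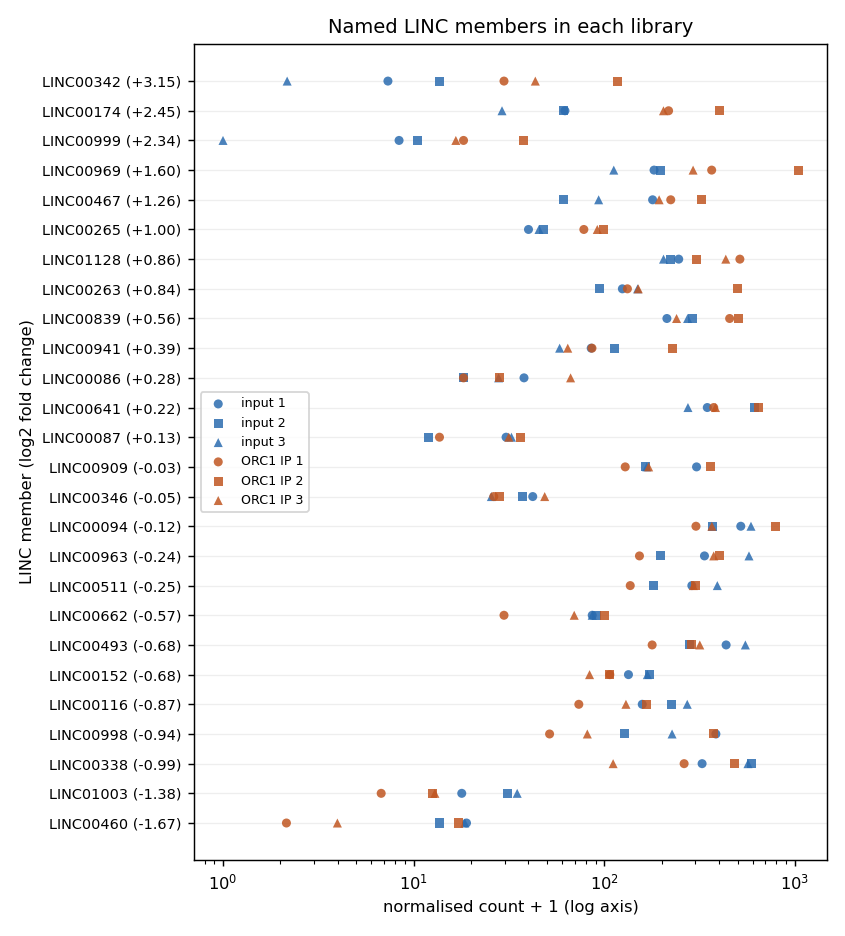
Normalised count + 1 (horizontal log axis) of each named LINC gene in every library, inputs in blue and ORC1 IPs in orange with the marker shape giving the library number; genes are ordered by log2 fold change, given beside each symbol. The IP points lie to the right of all input points in LINC00174, LINC00342, LINC00999, LINC00969, LINC00467, LINC00265 and LINC01128, and to the left of them in LINC00152 and LINC01003.

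By role, none of the lists held a called gene, with 6, 8 and 2 genes tested. Over all tested genes 2.28% were called higher and 1.42% lower, so the absence of a call in lists this short says little. Of 10 LINC symbols that were later found or proposed to encode small proteins, 6 were in the table and all 6 were tested. Their median log2 fold change was -0.27, with 3 positive and 3 negative. The 14 tested LINC genes now annotated as protein-coding had a median of 0.10, with 8 positive. LINC00493 (SMIM26) had 435, 277 and 549 normalised counts in the inputs and 177, 287 and 316 in the ORC1 IPs, a log2 fold change of -0.68. LINC00116 (MTLN), which encodes mitoregulin, a small protein of mitochondria, had 157, 224 and 271 against 72.5, 166 and 129, a log2 fold change of -0.87. Both overlapped between the groups. LINC00086 and LINC00087, now named SMIM10L2A and SMIM10L2B, were at 0.28 and 0.13.

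Of 19 symbols studied as cancer-associated RNAs, 9 were in the table and 8 were tested, with a median of -0.25, 2 positive and 6 negative. Besides LINC00265, LINC00152, LINC00460, LINC00963 and LINC00511, these were LINC00662 at -0.57, LINC00941 at 0.39 and LINC00346 at -0.05. LINC00941 shared 96.5% of its 50-base stretches with other genes. Of 9 symbols of small RNA hosts and cis-regulatory RNAs, 3 were in the table and 2 were tested, LINC00338 at -0.99 and LINC00263 (OLMALINC) at 0.84. LINC00263 had 123, 93.0 and 149 normalised counts in the inputs and 131, 500 and 150 in the ORC1 IPs, so that its mean difference lay in ORC1 IP 2.

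The annotation matched 149 of the 162 LINC genes and 84 of the 89 tested. Of these 84, 66 were annotated as lncRNA and 14 as protein-coding, and 31 carried another name than in the table. The name intergenic did not hold for all of them: 59 overlapped any annotated gene, 22 overlapped a protein-coding gene, and 33 had their nearest protein-coding gene within 5000 bp. The median log2 fold change was -0.03 for the 22 that overlapped a coding gene and -0.01 for the other 62. Over 79 LINC genes with a tested nearest coding gene, the Spearman correlation between the log2 fold changes of the neighbours was 0.0522, a description of genes measured in the same libraries. Across the 84 the fold change went with transcript length (Spearman rho 0.297, against 0.336 over all tested genes) and with exon number (0.334). The 28 longest transcripts had a median of 0.31, and the 28 of middle length and the 28 shortest had -0.26 and -0.03. All tested genes in the same 3 length classes had medians of 0.26, -0.08 and -0.33. Both called LINC genes were among the 28 longest, and calls over all tested genes were also more frequent there, 4.06% higher in the longest class against 1.17% and 0.799% in the others. The 35 LINC genes with 4 or more exons had a median of 0.33, the 38 with 2 or 3 exons -0.20 and the 11 with 1 exon -0.05. Over all tested genes these classes stood at 0.10, -0.17 and -0.24. All these points come from the same 6 libraries.

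**Figure D5:**
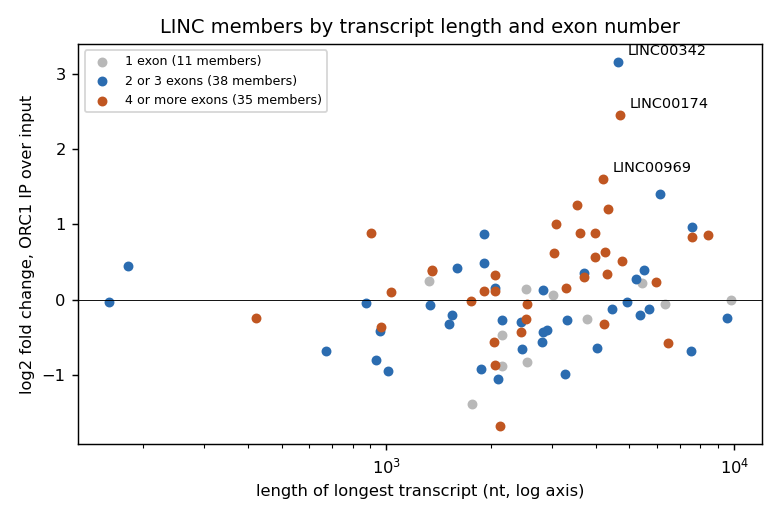
Log2 fold change of ORC1 IP over input (vertical axis) against the length of the longest annotated transcript (nt, horizontal log axis) for the 84 tested LINC genes with an annotation match, coloured by exon number. The called genes LINC00174 and LINC00342 are among the 28 longest transcripts, whose median is 0.31.

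Tandem GAA repeats are a sequence feature that the study followed in RNAs bound by ORC1, and the transcripts were therefore searched for GAAGAAGAA on the transcript strand. It occurred in 5 of 84 tested LINC genes (5.95%), against 12.9% of all tested genes and 6.22% of the antisense genes. LINC transcripts held 0.0181 such repeats per kb, against 0.0412 over all tested genes. The 5 were LINC00243, LINC00342, LINC00630, LINC01024 and LINC01057, and the longest run among them was of 4 units. The windows are shown with the repeat in capitals and 25 bases on each side to show how short the runs are.
LINC00342, transcript bases 3297 to 3355: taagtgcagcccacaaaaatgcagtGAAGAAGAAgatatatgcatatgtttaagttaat
LINC00243, transcript bases 367 to 428: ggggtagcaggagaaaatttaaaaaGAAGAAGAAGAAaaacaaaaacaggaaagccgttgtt
LINC00630, transcript bases 2698 to 2759: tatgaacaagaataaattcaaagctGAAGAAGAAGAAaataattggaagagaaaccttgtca
LINC01024, transcript bases 2824 to 2882: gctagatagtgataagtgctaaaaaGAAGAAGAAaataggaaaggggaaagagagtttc
LINC01057, transcript bases 4675 to 4733: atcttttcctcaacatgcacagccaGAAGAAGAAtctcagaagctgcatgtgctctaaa

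The 5 LINC genes with the repeat had a median log2 fold change of 0.30 and those without it -0.04, where the medians over all tested genes were 0.59 and -0.06. LINC00342 was the called gene among the 5, and LINC00174 held no such repeat. LINC00243 and LINC01024 were among the genes in which ORC1 IP 2 alone was high, LINC01024 with 27.4, 12.6 and 15.2 normalised counts in the inputs and 19.6, 94.6 and 19.4 in the ORC1 IPs.

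The 73 LINC genes that were not tested had mean levels of 1.48 to 9.63 normalised counts, with a median of 4.17. In 1 of them no library held more than 3 reads, and in 1 other gene no read was found in any input. For 33 of the 73 (45.2%), ORC1 IP 2 was the highest of the 6 libraries, against 26.6% of the 6500 genes that were not tested. All ORC1 IPs lay above all inputs for 9 (12.3%, against 7.92% of the 6500) and below them for 2 (2.74%, against 8.77%). With no filter every gene was fitted, and limma still called 2 LINC genes higher and 0 lower at the adjusted threshold. Over all 23013 genes 1.73% were called higher and 1.16% lower. Of the 162 LINC genes, 10 passed the cutoff of the study upward and 4 downward, against 9.50% and 6.92% of all genes.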

How the data were processed

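Nuclear RNA of HCT116 was sequenced as 3 input and 3 ORC1 IP libraries, made with a stranded total RNA kit. Per the labels and the methods of the study, reads were trimmed (Trimmomatic), aligned to hg19 (STAR), counted per gene (featureCounts) and analysed with DESeq2 by the authors. The deposited values are a signal, read counts divided by a size factor per library, and 100% were whole multiples of 1 read within a tolerance of 0.001, so reads were recovered. Deposited fold changes, standard errors, test statistics and p-values of the authors were not used. For 16513 genes whose mean reached 10, log2(normalised count + 1) was tested with limma 3.58.1 in R 4.3.3 (intensity trend, no block), Benjamini-Hochberg adjusted over all of them. Fold changes on this scale understate those of low genes. Alternatives used edgeR 4.0.16 and DESeq2 1.42.0 on recovered reads, other pseudocounts, filters and scalings, a replicate block, and omission of each library. Features came from GENCODE v44 on GRCh38, where a shared stretch is a run of 50 bases found in a transcript of another gene.

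The LINC genes and the lists by role were chosen with earlier results of these data known. Genes named in full were the called ones, the 5 largest fold changes in each direction among genes whose groups did not overlap, the 10 of highest mean and the list members tested. The libraries are 3 numbered RIP experiments per the labels, which pair each input with the ORC1 IP of the same number. The library titles carry the same pairing. After subtraction of group means, libraries of the same number correlated across genes at -0.322, -0.240 and 0.215. Input 2 with ORC1 IP 1 gave 0.497, and input 1 with ORC1 IP 2 gave 0.223. Subtracting the mean of 3 libraries ties the values within a group, so these correlations cannot decide on a mix-up of labels. Such a mix-up was not tested. The test without a block does not use the pairing. The labels do not say whether the 3 experiments used separate cultures, although the study describes its experiments in general as independently repeated, and p-values measure the spread between these libraries, which may be technical.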

Additional observations from a re-analysis of the deposited data

How the results depend on the processing

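Across 26 named LINC genes and 435 values under the alternatives, 396 kept direction and side of the threshold, 7 lost a call, 5 gained one and 27 reversed, in 9 genes whose log2 fold change was at most 0.39 in size. LINC00094 reversed with edgeR (0.0034), LINC00909 with TMM scaling (0.0157), edgeR (0.0776) and DESeq2 (0.0541), and LINC00087 with total-count scaling (-0.0672). Leaving out each library in turn gave ranges of -0.54 to 0.15 for LINC00094, -0.0318 to 0.55 for LINC00641, -0.62 to 0.21 for LINC00963, -0.55 to 0.12 for LINC00511, -0.45 to 0.29 for LINC00909, -0.24 to 0.69 for LINC00086, -0.33 to 0.57 for LINC00087, -0.15 to 0.77 for LINC00941 and -0.33 to 0.12 for LINC00346.

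LINC genes called higher (2) numbered 1 with a filter at a mean of 50, 0 with total-count scaling and 3 with DESeq2. Over all tested genes the share called higher was 2.37%, 0.527% and 7.67% in these settings. With a library left out the LINC count ranged from 0 to 3. It was 1 without input 1, 0 without input 3 or ORC1 IP 3, and 3 without ORC1 IP 2. The share of all tested genes was 2.44% without input 1, 0.0363% without input 3, 0.145% without ORC1 IP 3 and 11.9% without ORC1 IP 2. LINC genes called lower (0) ranged from 0 to 3, the 3 arising without ORC1 IP 2, where 6.38% of all tested genes were lower. The 7 past the threshold of the study upward became 10 with no filter (background 9.50%) and 4 with the filter at 50 (11.5%). They became 5 with the replicate block (10.7% in limma, 10.2% in edgeR) and 3 with total-count scaling (6.64%). With a library left out they ranged from 4 to 8 (background 6.66% to 15.7%). The 1 downward became 4 with no filter (background 6.92%) and 0 with the filter at 50 (7.07%). With a library left out it ranged from 0 to 7 (background 4.55% to 9.86%), the 7 arising without ORC1 IP 2. Paired by the replicate block, limma and edgeR each gave 0 downward (background 6.78% and 6.41%). The block changed no call at the adjusted threshold: LINC00174 had an adjusted p of 0.0113 and LINC00342 of 0.0165 in the blocked limma fit. Scaling by total count moved the median of all tested genes from 0.01 to -0.19 and that of the LINC genes to -0.21. The difference in summed share ranged from -0.0151 to 0.0162 percentage points with a library left out, the sign turning without ORC1 IP 2. With pairs it was 0.00503 (exact sign-flip test, p = 1). Fewer genes tested or fewer libraries is part of the construction of the filter and omission settings. The cause of the other shifts was not tested. Depth was low, with 4622 to 21147 reads per library on all LINC genes together, and its part in these shifts was not tested.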
